A study of Mus musculus with 8 samples.

Results

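Immediate early and stimulus-response genes were examined in the dorsal dentate gyrus of mice that lack Cav3.1, a low-threshold (T-type) calcium channel. The 35 genes were given as a list by symbol: 10 neuronal activity genes (Arc, Npas4, Egr1 to Egr4 and the Fos family), 6 stress and growth-factor genes (Klf2, Klf4, Maff, Gadd45b, Gadd45g and Btg2), and 19 others. Of the 35 genes, 32 were among the 19321 genes that a probe with 1 symbol names on this array, each of them with 1 probe. The expression of Egr4, Fosl1 and Arl4d is not analysed here, while Egr4 and Arl4d are among the genes with promoter sequence. Of the 32, 31 were bright enough to be tested, and these are the genes counted below. Npas4 was not. All animals were male, C57BL/6J by their labels and 8 to 12 weeks old. The wild-type group (WT) and the Cav3.1 knockout group (Cav3.1 KO) had 4 single-colour arrays each, made from total RNA. No treatment or stimulus is named for either group, nor is the knockout allele or the tissue in which it acts. The labels do not say that each array came from its own animal, so each p-value rests on the spread between samples that may differ only technically. The tissue is a mixture of cells, in which fewer cells of a type and less RNA per cell cannot be told apart.

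Immediate early genes are transcribed within minutes of a stimulus without new protein synthesis. In neurons, calcium entry and kinase cascades act on transcription factors already in place, such as CREB, SRF and MEF2, and these switch on Fos, Egr, Nr4a and Npas4 family genes and the synaptic gene Arc. In the dentate gyrus these genes are widely used to mark granule cells that have recently fired. Klf, Maff, Gadd45 and Btg2 genes also respond to serum, growth factors, hormones and cellular stress, in many cell types.

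Values are normalised log2 intensities, which are comparable between arrays for 1 probe and not between probes, and every difference is given as Cav3.1 KO minus WT. Where 4 values are given for a group they are in the order of replicates 1 to 4. Blank spots averaged 53.0 to 63.4 per array, and 85.4% to 93.0% of probes were detected. The slope of scan gain 1 against scan gain 3, given in each file's header, divided the arrays into 2 sets. It was 0.244 to 0.247 on WT replicates 1, 2 and 4 and on replicate 1 of Cav3.1 KO, and 0.235 to 0.236 on replicate 3 of WT and replicates 2, 3 and 4 of Cav3.1 KO. The sets therefore differ in genotype as well, and results that move with them are given below. The probe for Cacna1g, the gene of Cav3.1, differed by -0.08 (SE 0.0508, limma adjusted p 0.816) and, since no source used here gives its place relative to the deletion, does not check the genotype. Markers of mature granule neurons were present, with 15 of 15 tested. Their mean lay at 7.52 to 7.58 in WT against 7.37 to 7.53 in Cav3.1 KO. Means of astrocyte markers lay at 9.20 to 9.26 in WT against 9.21 to 9.29 in Cav3.1 KO, and those of microglia markers at 7.65 to 7.83 and 7.62 to 7.70. Choroid plexus markers ranged from 6.30 to 8.48 over the 8 arrays and oligodendrocyte markers from 9.96 to 10.6. Markers of the CA fields lay at 7.59 to 7.68 in WT against 7.36 to 7.56 in Cav3.1 KO, and those of interneurons at 8.83 to 9.01 and 8.81 to 9.11. Thalamus and habenula markers were highest on replicates 2 and 3 of Cav3.1 KO, where they averaged 7.60 and 7.64, and lay between 6.80 and 7.19 on the other 6 arrays.

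Promoter sequence was available from RefSeq (GRCm38.p6) for 28 of the 35 genes, as windows from 250 bases before to 50 bases after a transcription start. The cAMP response element (CRE) bound by CREB, TGACGTCA on either strand, occurred in 5 of the 28 genes (17.9%), namely Arl4d, Btg2, Dusp1, Maff and Plk2, against 2.03% of all 27025 genes with a window. Its core TGACG, which the full element contains, occurred in 20 of the 28 (71.4%), against 23.0% of all genes. The letters ACANNNTGT, part of the glucocorticoid response element, occurred in 3 of the 28 (10.7%), against 7.90% of all genes. The CArG box bound by SRF occurred in Dusp5 and Egr2, 7.14% against 1.81%. Of the 6 stress and growth-factor genes, Btg2 and Maff held the full element, and of the 6 neuronal activity genes with a window 0 did, while 5 of those 6 held the core. A match describes letters in a window and is not a measured binding site. The windows below are those of the 2 genes called different between the groups (Btg2 and Maff, the latter at the 1 of its 3 starts that holds the element), of Dusp1, which holds it too, and of Fos and Klf4, which hold the core only. Capitals mark TGACG or TGACGTCA on either strand.
Btg2, chr1:134079106-134079405, strand -: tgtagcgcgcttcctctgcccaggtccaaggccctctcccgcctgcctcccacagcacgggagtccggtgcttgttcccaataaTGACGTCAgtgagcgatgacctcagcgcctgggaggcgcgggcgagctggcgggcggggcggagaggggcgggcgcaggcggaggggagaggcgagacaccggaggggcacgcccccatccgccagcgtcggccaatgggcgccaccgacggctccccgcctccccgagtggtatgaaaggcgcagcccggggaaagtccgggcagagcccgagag
Maff, chr15:79347270-79347569, strand +: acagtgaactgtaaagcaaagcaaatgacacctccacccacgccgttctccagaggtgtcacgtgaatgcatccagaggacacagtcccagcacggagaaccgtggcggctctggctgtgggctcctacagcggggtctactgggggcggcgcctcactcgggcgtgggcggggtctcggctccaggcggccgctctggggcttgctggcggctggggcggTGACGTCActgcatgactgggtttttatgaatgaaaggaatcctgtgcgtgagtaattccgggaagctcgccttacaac
Dusp1, chr17:26508423-26508722, strand -: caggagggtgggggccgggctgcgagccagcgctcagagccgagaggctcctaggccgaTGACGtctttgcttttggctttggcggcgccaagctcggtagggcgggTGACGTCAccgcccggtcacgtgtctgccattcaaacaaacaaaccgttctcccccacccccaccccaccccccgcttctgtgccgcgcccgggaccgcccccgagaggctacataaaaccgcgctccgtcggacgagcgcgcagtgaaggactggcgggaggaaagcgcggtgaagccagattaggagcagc
Fos, chr12:85473640-85473939, strand +: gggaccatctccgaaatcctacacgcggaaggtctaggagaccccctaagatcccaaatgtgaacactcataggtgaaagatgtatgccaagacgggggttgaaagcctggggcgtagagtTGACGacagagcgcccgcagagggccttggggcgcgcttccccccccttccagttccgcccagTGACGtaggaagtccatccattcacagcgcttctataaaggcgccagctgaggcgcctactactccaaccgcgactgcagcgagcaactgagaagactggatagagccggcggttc
Klf4, chr4:55532426-55532725, strand -: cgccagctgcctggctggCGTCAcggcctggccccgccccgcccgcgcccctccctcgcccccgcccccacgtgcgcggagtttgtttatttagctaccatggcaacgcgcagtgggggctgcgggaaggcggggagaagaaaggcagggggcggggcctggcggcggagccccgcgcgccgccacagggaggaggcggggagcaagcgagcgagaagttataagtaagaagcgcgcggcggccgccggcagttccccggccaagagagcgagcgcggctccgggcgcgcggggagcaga

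In Cav3.1 KO, all 6 stress and growth-factor genes had higher means, while the 7 tested neuronal activity genes differed in both directions. By limma, Btg2 and Maff rose and no gene fell past the threshold of 0.05 on the p-value adjusted over all 21150 probes. That is 2 of 31 genes, both of them higher, while 0.288% of all probes passed, 0.199% higher and 0.0898% lower. Before adjustment, 11 of the 31 genes were higher and 2 lower at a p under 0.05, against 3.76% and 4.34% of all probes. All 4 Cav3.1 KO arrays lay above all 4 WT arrays for 8 genes (Klf2, Klf4, Maff, Gadd45g, Btg2, Atf3, Dusp1 and Trib1), and below them for 0 genes, where 2.42% and 2.53% of all probes separated in these directions. The median difference was 0.09 over the 31 genes and 0.00 (-0.000775) over all probes.

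The 6 stress and growth-factor genes all had higher means in Cav3.1 KO, by 0.20 to 1.15, and 2 of them rose past the threshold. Btg2 encodes an antiproliferative protein of the BTG/TOB family that is induced by p53, growth factors and neuronal activity. Its WT arrays read 6.39, 6.38, 6.46 and 6.38 and its Cav3.1 KO arrays 6.69, 6.81, 6.92 and 6.81. The groups did not overlap. The difference was 0.41 (SE 0.0476, n = 4 per group), a 1.32-fold rise, with a limma adjusted p of 0.0184. Maff encodes a small MAF transcription factor, which lacks an activation domain and pairs with other bZIP proteins. It read 6.02, 6.01, 6.12 and 6.04 in WT and 6.35, 6.40, 6.29 and 6.40 in Cav3.1 KO, again without overlap. Maff rose by 0.31 (SE 0.0365, n = 4 per group, limma adjusted p 0.0184). Both probes were dim, at mean spot intensities of 88.1 and 69.2 in WT. With subtraction of the mean blank spot in place of normexp the differences were 0.89 for Btg2 and 1.14 for Maff. The call of Btg2 was lost without WT replicate 1 (limma adjusted p 0.0691), 2 (0.0538), 3 (0.0574) or 4 (0.0852) or Cav3.1 KO replicate 2 (0.0673) or 4 (0.0631), and that of Maff without WT replicate 1 (0.0691), 2 (0.0507) or 4 (0.0852) or Cav3.1 KO replicate 2 (0.0673) or 4 (0.0602).

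Klf4, a zinc-finger factor known from stem cells and vascular endothelium, had the largest difference among the 31 genes with normexp. With blank subtraction that of Atf3, whose probe was close to background in WT, was larger (1.818 against 1.435). Klf4 read 7.63, 7.38, 7.51 and 7.51 in WT, and 9.21, 8.69, 8.27 and 8.46 in Cav3.1 KO. Every Cav3.1 KO array stood above every WT array, with replicate 1 the highest. The difference of 1.15 (SE 0.182, 2.22-fold, 95% interval 0.73 to 1.57) had a limma adjusted p of 0.0639 and did not pass. It passed without Cav3.1 KO replicate 1 (difference 0.97, adjusted p 0.0218). Gadd45g, whose protein binds stress-activated kinases and cell-cycle regulators, read 9.35, 8.94, 9.21 and 9.02 in WT and 9.72, 10.18, 9.84 and 9.82 in Cav3.1 KO. These groups did not overlap either, and the difference of 0.76 (SE 0.119, 1.70-fold) also missed the threshold (adjusted p 0.0609). Klf2, a factor of endothelial cells under flow and of resting lymphocytes, differed by 0.20 (SE 0.0502, adjusted p 0.240), from 6.87 to 7.04 in WT to 7.10 to 7.25 in Cav3.1 KO. Gadd45b, the relative of Gadd45g that is induced in dentate granule cells by activity, was the only one of the 6 whose groups overlapped. Its Cav3.1 KO arrays read 7.47, 7.40, 8.05 and 8.22 against 7.24, 7.74, 7.57 and 7.40 in WT, which gives 0.30 (SE 0.200, adjusted p 0.848). Klf2 and Klf4 are expressed by endothelial cells, and endothelial markers averaged 7.22 to 7.33 in WT against 7.18 to 7.25 in Cav3.1 KO, with 6 of 15 higher. One of the 15, Cldn5 of the endothelial tight junction, named here after its value was seen, fell by 0.79 (SE 0.0922, limma adjusted p 0.0182, and 0.0206 with the gain set as a block). Pericyte markers averaged 6.63 to 6.80 and 6.63 to 6.81. The part of tissue content in these differences was not tested.

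None of the 7 neuronal activity genes tested passed the threshold, and 5 had higher and 2 lower means in Cav3.1 KO, although 3 of the 7 had differences near 0 whose sign moved between settings. Arc had the opposite sign in 8 of 21 settings, Fosl2 in 4 and Egr3 in 2. Other scalings turned Arc lower with blank subtraction (-0.02) and in the authors' value table (-0.07), and Fosl2 higher with median scaling (0.00237). In that value table the median difference over all probes was itself -0.07 (-0.0656). Of the 15 granule neuron markers, 11 had lower means in Cav3.1 KO, and C1ql2, a secreted synapse organiser named here after its value was seen, fell by 0.57 (SE 0.0509, limma adjusted p 0.00650). Their part in the values of the activity genes was not tested. Arc, a synaptic protein that regulates AMPA receptor uptake and is a standard marker of recently active granule cells, read 7.17, 7.65, 7.36 and 7.12 in WT. In Cav3.1 KO it read 6.66, 6.91, 7.79 and 8.11. Replicates 1 and 2 were thus below every WT array and replicates 3 and 4 above every one. The difference was 0.04 with a 95% interval of -0.68 to 0.77 (SE 0.315, limma adjusted p 0.998), so a change of either sign within that interval could not be told from none with these arrays. Leaving out 1 array moved it from -0.21 (without Cav3.1 KO replicate 4) to 0.28 (without Cav3.1 KO replicate 1), and its sign also turned without WT replicate 1 (-0.00996) or 4 (-0.03) or Cav3.1 KO replicate 3 (-0.10). Fos, the bZIP partner of Jun in AP-1, read 6.55, 6.88, 6.57 and 6.61 in WT and 6.68, 7.0, 7.50 and 7.64 in Cav3.1 KO. Its difference was 0.55 (SE 0.203, 1.46-fold), with replicate 1 inside the WT range (adjusted p 0.503, exact two-sided permutation p 0.0571, where 4 arrays against 4 allow no less than 0.0286). Egr1, a zinc-finger factor linked to lasting potentiation at perforant path synapses, read 8.77, 9.25, 8.79 and 9.23 in WT and 8.51, 8.66, 8.93 and 8.99 in Cav3.1 KO. The groups overlapped, and the difference was -0.24 (SE 0.151, adjusted p 0.827).

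Egr2, better known for myelination and hindbrain patterning, differed by 0.09 (SE 0.0697, adjusted p 0.889), and its Cav3.1 KO replicates 3 and 4, at 6.22 and 6.33, again lay above every WT array. The other activity genes were narrow in range, though the probes of Egr3 and Fosl2 were close to the blank level. Egr3 differed by 0.01 (0.00806, SE 0.0280), Fosb by 0.08 (SE 0.0428) and Fosl2 by -0.01 (-0.00748, SE 0.0444), with adjusted p-values of 0.995, 0.753 and 0.997. Npas4, a transcription factor induced selectively by calcium entry in neurons, was not well above background. Its probe was detected on 0 WT arrays and 1 Cav3.1 KO array, with mean spot intensities of 56.1 and 61.4, and no difference is given.

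**Figure D1:**
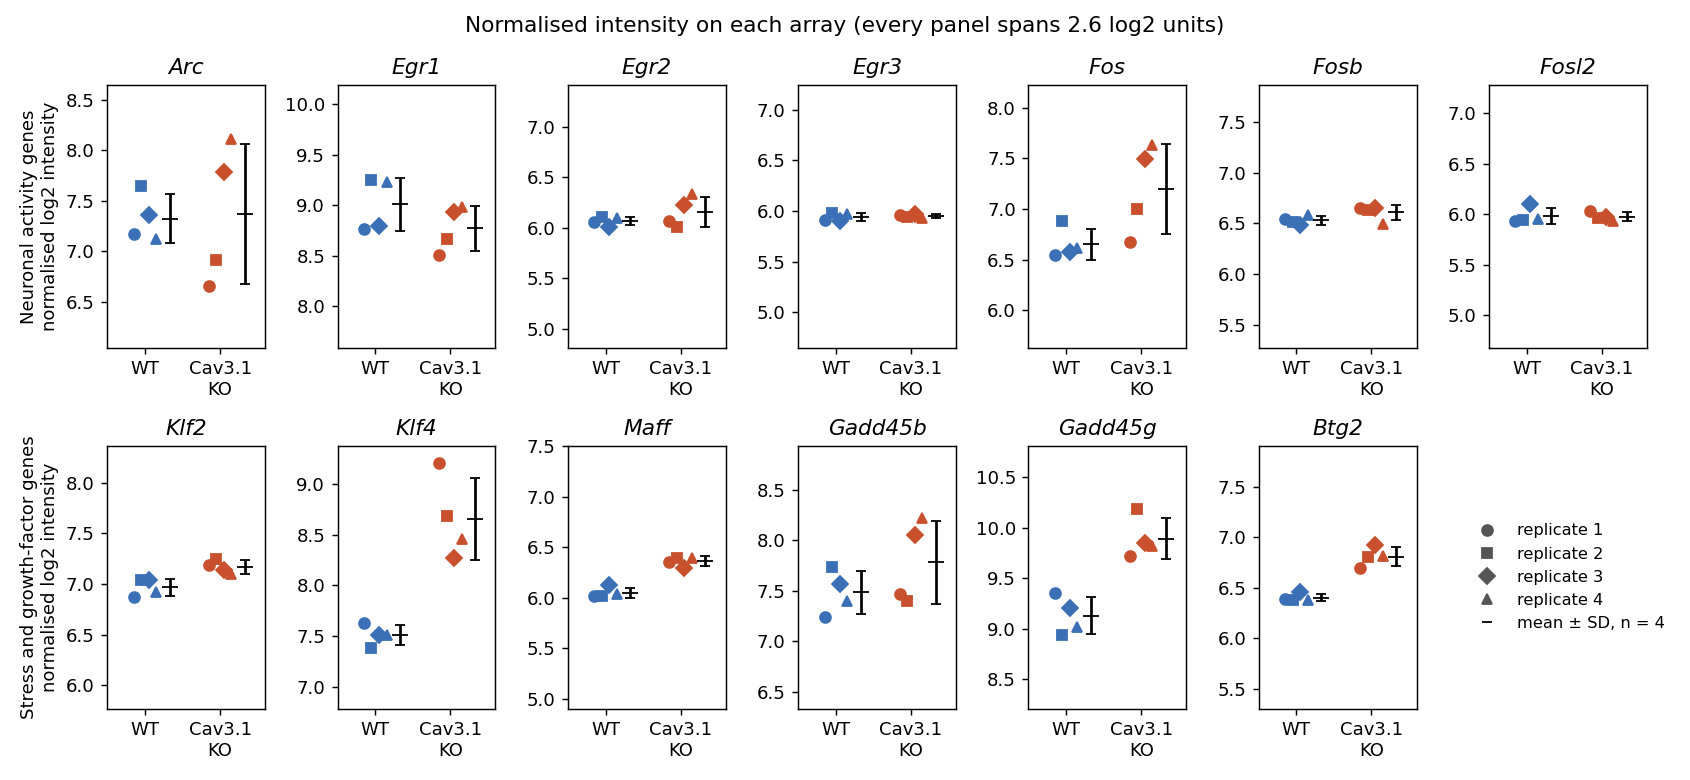
Normalised log2 intensity of the 7 neuronal activity genes (top) and the 6 stress and growth-factor genes (bottom) on each array, WT in blue and Cav3.1 KO in orange, a marker shape per replicate number, with the mean and SD of 4 arrays beside them. For Klf2, Klf4, Maff, Gadd45g and Btg2 all Cav3.1 KO arrays lie above all WT arrays, while Arc spreads from 6.66 to 8.11 in Cav3.1 KO on both sides of the WT arrays.

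The 2 groups were also set side by side array by array. The mean of the 6 stress and growth-factor genes, relative to its WT average, was -0.01, -0.01, 0.06 and -0.04 on the WT arrays and 0.52, 0.53, 0.49 and 0.54 on the Cav3.1 KO arrays. The mean of the 7 activity genes was -0.08, 0.12, -0.04 and 0.01 in WT, and -0.14, -0.06, 0.22 and 0.27 in Cav3.1 KO. The first mean was nearly level over the Cav3.1 KO arrays and the second lay on both sides of the WT average. The level mean does not hold for each gene in it. Klf4 ran from 8.27 to 9.21 and Gadd45b from 7.40 to 8.22 over the Cav3.1 KO arrays, in opposite order, with SDs of 0.408 and 0.411 against 0.445 for Fos. Nor did all activity genes show this spread, since the SDs of Egr3, Fosb and Fosl2 in Cav3.1 KO were 0.0185, 0.0777 and 0.0420. The probes of Egr3 and Fosl2 were close to the blank level, at mean spot intensities of 64.4 and 66.3 in WT. Their small SDs are therefore poorly measured. With blank subtraction the SEs of their differences were 0.149 and 0.224, against 0.465 for Arc. The median difference was 0.36 for the stress and growth-factor genes and 0.04 for the activity genes. With blank subtraction these medians were 0.86 and 0.07. The genes were chosen with earlier results known, so these medians have no test.

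The arrays that carried the high values differed between genes. Of the 31 genes, 15 were higher on both Cav3.1 KO replicates 3 and 4 than on replicates 1 and 2, among them Arc, Fos, Egr1, Egr2, Junb, Gadd45b, Homer1 and Ptgs2. In 5 of these 15 (Arc, Egr2, Fos, Gadd45b and Ier2), replicates 3 and 4 were also above every WT array and at least 1 of replicates 1 and 2 was not. In 4 genes, namely Klf2, Klf4, Dusp1 and Ier3, replicates 1 and 2 were both higher than replicates 3 and 4. In WT, replicate 2 was the highest array for 20 of the 31 genes and replicate 1 the lowest for 14. The same counts over all probes were not made, so these orders are not shown to be particular to the listed genes. The residual SD of Arc was 0.518, larger than that of 99.8% of all probes, and 10 of the 31 genes exceeded 95% of probes (Arc, Egr1, Fos, Klf4, Gadd45b, Junb, Nr4a1, Nr4a2, Dusp1 and Plk2). Btg2 and Maff, with 0.0709 and 0.0498, were near the median of all probes, 0.0683. Their probes were dim, so these small SDs depend on the processing. With blank subtraction the SEs of their differences were 0.1095 and 0.1348, against 0.0476 and 0.0365 with normexp. Of the 5 genes outside the list whose values, centred within each group, followed the mean of the activity genes most closely over the 8 arrays, the first was Kmt5b, a histone methyltransferase (Pearson r 0.987). The others were Armcx3, Zbed5, Sp4 and Cnga4 (0.977 to 0.981), and all 5 were picked for that likeness from all genes tested. Among the listed genes r with the same mean was 0.968 for Junb and 0.941 for Gadd45b, and -0.871 for Klf4 and -0.792 for Dusp1. The activity genes, each a part of that mean, did not all follow it. For them r was 0.984 (Fos), 0.966 (Arc), 0.897 (Egr2), 0.847 (Egr1), 0.281 (Egr3), -0.435 (Fosl2) and -0.544 (Fosb). These values share the 8 arrays and their normalisation and describe them only.

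**Figure D2:**
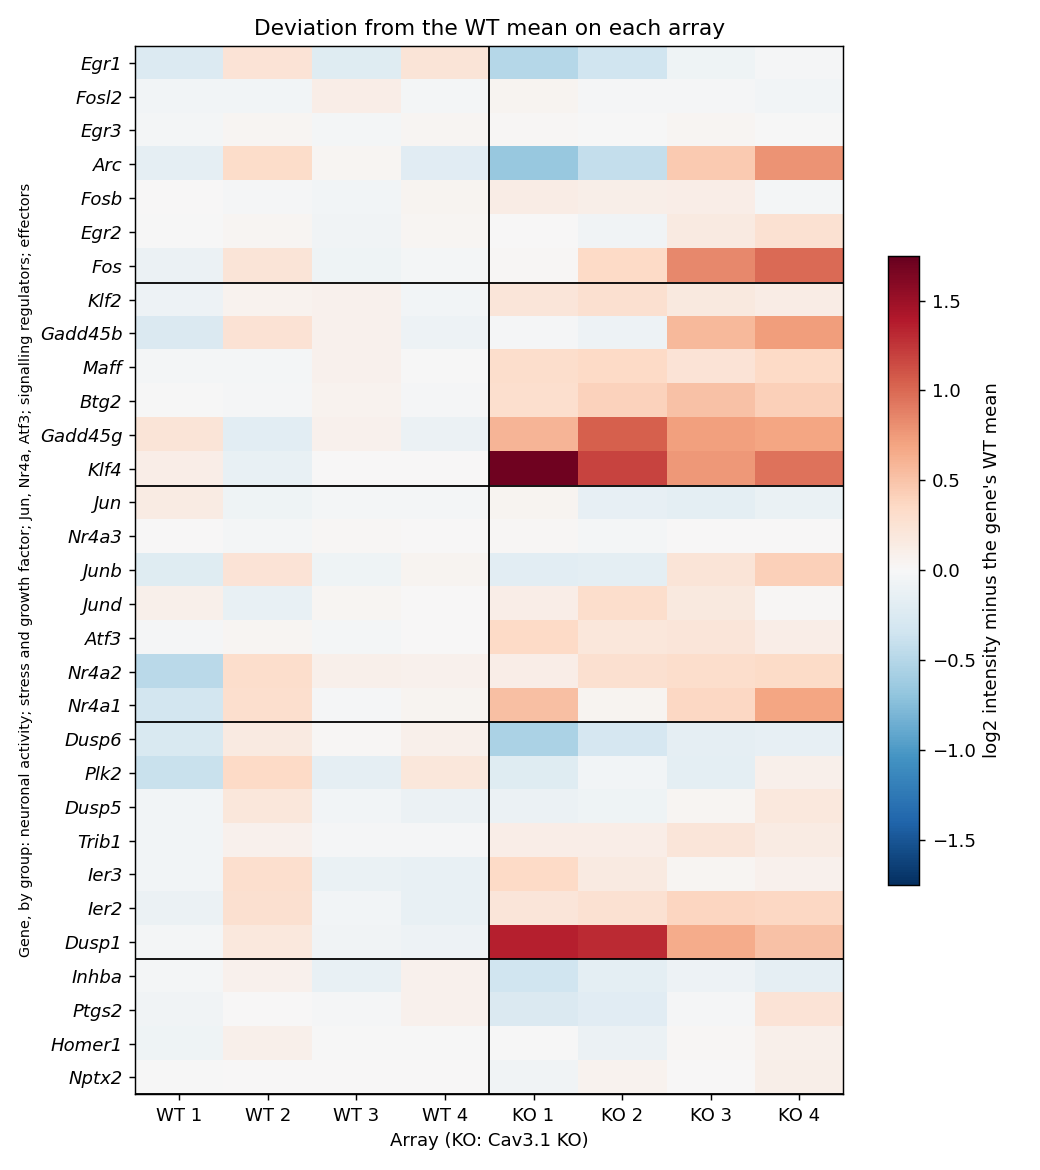
Log2 intensity of the 31 tested genes (rows, grouped by role) on the 8 arrays (columns), as the deviation from each gene's WT mean, red above and blue below. Gadd45g, Klf4, Maff and Btg2 are red on all 4 Cav3.1 KO arrays, whereas Arc is blue on replicates 1 and 2 and red on replicates 3 and 4.

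Among the remaining transcription factors, 0 of 7 passed, with a median difference of 0.15. The orphan nuclear receptors Nr4a1 and Nr4a2, fast-induced factors of plasticity and metabolism, differed by 0.41 (SE 0.160, limma adjusted p 0.555) and 0.26 (SE 0.150, adjusted p 0.789). Nr4a1 read 7.62, 8.24, 7.93 and 7.99 in WT and 8.47, 8.00, 8.31 and 8.63 in Cav3.1 KO, so that replicate 2 fell inside the WT range. Nr4a3 was close to the blank level and differed by 0.00 (0.000427, SE 0.0249). Atf3, a stress-induced repressor, separated the groups, at 5.78 to 5.86 in WT against 5.94 to 6.17 in Cav3.1 KO, and differed by 0.22 (SE 0.0476, adjusted p 0.162). The probe was close to background in WT, with spot intensities of 56.2, 60.0, 61.9 and 59.3 beside mean blank spots of 53.0, 53.6, 59.7 and 55.4, and was detected on 3 of 4 WT arrays. The size of its difference is therefore poorly measured, and was 1.82 with blank subtraction. The AP-1 subunits were Jun at -0.09 (SE 0.0633), Junb at 0.07 (SE 0.152) and Jund at 0.15 (SE 0.0690), with adjusted p-values of 0.848, 0.986 and 0.648. Junb resembled Arc, with 7.10, 7.13, 7.51 and 7.70 on the Cav3.1 KO arrays against 7.08 to 7.53 in WT.

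Among 7 signalling regulators, most of which damp the pathways that induce them, 0 passed and 5 had higher means. Of these, Dusp5, close to 0, had the opposite sign in 7 of 21 settings, the authors' value table (-0.01) among them. The median difference over all probes in that table was -0.07 (-0.0656). Dusp1, a phosphatase that inactivates p38, JNK and ERK and is also induced by glucocorticoids, read 7.29, 7.51, 7.26 and 7.24 in WT and 8.69, 8.63, 7.98 and 7.84 in Cav3.1 KO. The groups did not overlap, and replicates 1 and 2 were the highest arrays. Its difference was 0.96 (SE 0.197, 1.94-fold), with a limma adjusted p of 0.147. Dusp6, the cytoplasmic phosphatase specific for ERK, had the opposite sign. It read 8.66, 9.10, 8.96 and 9.02 in WT and 8.37, 8.65, 8.78 and 8.79 in Cav3.1 KO, and differed by -0.29 (SE 0.118, adjusted p 0.587). Dusp5, its nuclear counterpart, differed by 0.01 (0.0123, SE 0.0846, adjusted p 0.998). Trib1, a pseudokinase that directs proteins to degradation, differed by 0.15 (SE 0.0362, adjusted p 0.217) without overlap, from 6.15 to 6.27 in WT to 6.31 to 6.41 in Cav3.1 KO. Ier2 differed by 0.30 (SE 0.0891, adjusted p 0.340) and Ier3 by 0.15 (SE 0.106, adjusted p 0.864). Ier2 was called without WT replicate 2, whose 6.68 was its highest WT value (difference 0.39, adjusted p 0.0394). Plk2, a kinase of homeostatic synaptic weakening, differed by -0.09 (SE 0.156, adjusted p 0.982).

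None of the 4 synaptic, secreted and enzyme products passed, and 2 had lower means, to which blank subtraction, median scaling, cyclic loess and the value table added Homer1. In the value table Homer1 differed by -0.06, where the median over all probes was -0.07. Inhba, the activin A subunit that neuronal activity induces, read 6.58, 6.68, 6.48 and 6.68 in WT and 6.25, 6.43, 6.51 and 6.45 in Cav3.1 KO. It differed by -0.19 (SE 0.0667, limma adjusted p 0.436). Ptgs2, the inducible cyclooxygenase, differed by -0.05 (SE 0.101), and its Cav3.1 KO arrays ran from 6.41 to 6.91 around WT values of 6.60 to 6.73. Homer1, a postsynaptic scaffold with an activity-induced short form, differed by 0.00 (0.000318, SE 0.0482). No source used here says which form its probe detects. The neuronal pentraxin Nptx2, which clusters AMPA receptors and whose probe was dim, differed by 0.03 (SE 0.0372). The limma adjusted p-values of these 3 were 0.986, 0.9999 and 0.972.

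**Figure D3:**
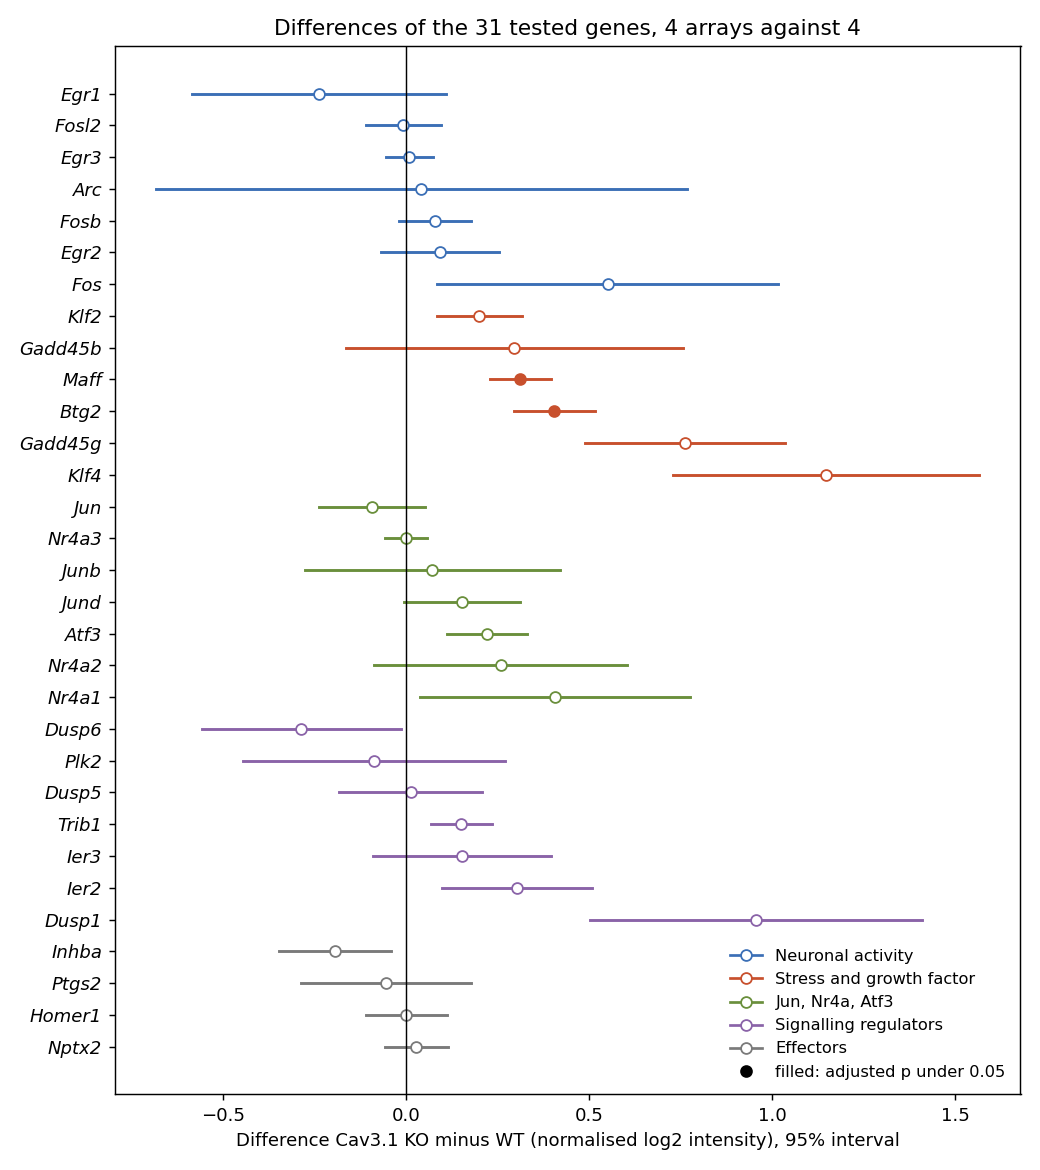
Difference Cav3.1 KO minus WT of the 31 tested genes in normalised log2 intensity (points) with 95% intervals (lines), 4 arrays against 4, coloured by role. Filled points mark Btg2 and Maff, the 2 genes past the adjusted threshold. The intervals of Klf4 (0.73 to 1.57), Dusp1 (0.50 to 1.41) and Gadd45g (0.49 to 1.04) are wider than those of Btg2 and Maff and lie further from 0.

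In 3 further lists of genes around stimulus-dependent transcription the median difference lay close to that of all probes. Of 31 upstream kinases and transcription factors tested, 0 passed, 10 had higher and 21 lower means, and the median difference was -0.02. At an unadjusted limma p under 0.05, 0 of the 31 were higher and 4 lower, against 3.76% and 4.34% of all probes. The groups separated higher in Cav3.1 KO for 0 and lower for 1 of the 31, against 2.42% and 2.53% of all probes. The 3 with the smallest p were Camk2a at -0.30 (SE 0.0900, limma adjusted p 0.359), the CArG-box factor Srf at -0.17 (SE 0.0580, adjusted p 0.449) and Creb1, the gene of CREB, at -0.16 (SE 0.0596, adjusted p 0.540). Srf read 7.47, 7.70, 7.43 and 7.56 in WT and 7.39, 7.36, 7.32 and 7.42 in Cav3.1 KO, so its groups were separate by a narrow margin. Of 42 further stimulus-induced genes tested, 7 were higher and 4 lower at an unadjusted limma p under 0.05. The groups separated higher for 5 of the 42 and lower for 3. Past the adjusted threshold 1 gene rose and 0 fell, against 0.199% and 0.0898% of all probes. The median difference was 0.00 (-0.00423). The gene that rose was Csrnp1, a nuclear protein gene induced through AXIN1, at 6.29, 6.43, 6.50 and 6.49 in WT and 6.81, 6.84, 6.73 and 6.88 in Cav3.1 KO. It rose by 0.39 (SE 0.0533, adjusted p 0.0394). This call held without WT replicate 1 and was lost without WT replicate 2 (0.0765), 3 (0.0849) or 4 (0.0959) or Cav3.1 KO replicate 1 (0.0795), 2 (0.114), 3 (0.0613) or 4 (0.104). Of 21 relatives of the stress and growth-factor genes, 0 passed, 12 were higher and 9 lower, with a median of 0.02. At an unadjusted limma p under 0.05, 4 of the 21 were higher and 1 lower. The groups separated higher for 4 and lower for 0. Klf15, a glucocorticoid-induced factor, differed by 0.27 (SE 0.0502, adjusted p 0.0988) and Gadd45a by 0.19 (SE 0.0442, adjusted p 0.206), both without overlap. The third by p was Klf6 at 0.25 (SE 0.0707, adjusted p 0.302), also without overlap. A list of 20 tested genes induced by glucocorticoids, which includes Dusp1 and Klf15, had a median of 0.23. Past the threshold 6 of its genes were higher and 0 lower, against 0.199% and 0.0898% of all probes. With the gain set as a block 3 of its genes were called, against 0.109% of all probes. Its mean lay at 7.76 to 7.83 on the WT arrays and 8.18 to 8.26 on the Cav3.1 KO arrays. Its part in the differences of the stress and growth-factor genes was not tested.

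With the 2 gain sets taken into account, some of these values moved more than others. With the gain set as a block, 0.109% of all probes were called, and among the 31 genes Btg2 was (difference 0.35, SE 0.0395, limma adjusted p 0.0476) while Maff was not (0.29, SE 0.0398, adjusted p 0.0757). Csrnp1 was not called either (0.36, adjusted p 0.127). All 6 stress and growth-factor genes kept a positive difference with the block, with a median of 0.32, and also within each set. The median was 0.32 where WT replicates 1, 2 and 4 were set against Cav3.1 KO replicate 1, and 0.35 where WT replicate 3 was set against Cav3.1 KO replicates 2, 3 and 4. These have 1 array on a side and no test. For Klf4 the values were 1.71 and 0.96, and for Gadd45g 0.62 and 0.74. Of the 7 activity genes, 5 had opposite signs in the 2 sets (Arc, Egr1, Egr2, Fos and Fosl2), as had 13 of the 31 genes. The share of all probes with opposite signs was not computed. Arc differed by -0.66 in the first and 0.25 in the second, Egr1 by -0.57 and 0.07, Fos by 0.00 (-0.00294) and 0.81, Egr2 by -0.02 and 0.18, and Fosl2 by 0.09 and -0.15. Over the 7 activity genes the median was 0.00 (-0.00294) and 0.11. With the block Arc changed sign, to -0.21 (SE 0.342, adjusted p 0.909), and Fos differed by 0.40 (SE 0.224, adjusted p 0.627). The chip numbers in the scanner output also form 2 series, the later holding replicate 3 of WT and replicate 4 of Cav3.1 KO. The median over the stress and growth-factor genes was 0.37 within the first series and 0.48 within the later one, and over the activity genes 0.02 and 0.19. In the first series alone, with 3 arrays a group, neither Btg2 (adjusted p 0.197) nor Maff (adjusted p 0.0979) was called. No source used here says what divided the sets, and its part in these differences was not tested.

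**Figure D4:**
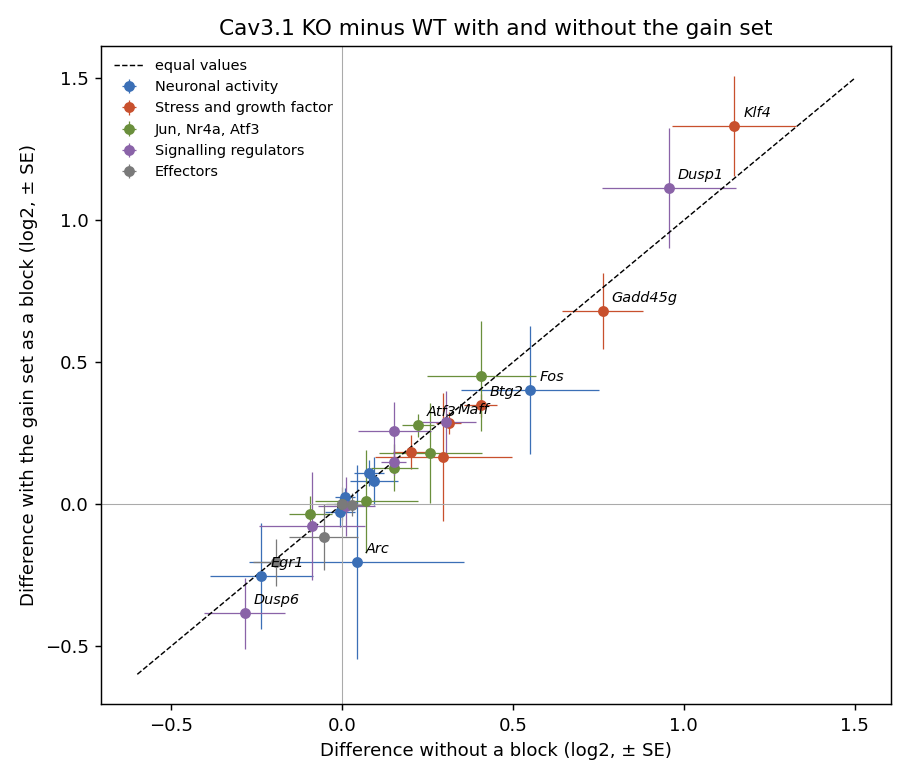
Difference Cav3.1 KO minus WT of the 31 tested genes in log2 intensity without a block (horizontal axis) and with the gain set as a block (vertical axis), each with its SE, coloured by role. Most genes lie close to the dashed line of equal values; Arc moves from 0.04 to -0.21 and Klf4 from 1.15 to 1.33.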

How the data were processed

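RNA from 4 WT and 4 Cav3.1 KO samples was amplified, coupled to Cy5 and hybridised to TORAY single-colour chips, per the labels' protocols. The deposited values are median spot intensities at 635 nm, not normalised, per the file headers. The headers list 3 scan gains, and no source used here says how they were merged. The authors' deposited value table, on a linear intensity scale, served as an alternative after log2 transformation.

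No local background could be used, since the deposited background values followed the spot brightness, so normexp (offset 50) was fitted on spot intensities alone, in place of the planned background correction. Values were then log2-transformed and quantile-normalised. Of 23473 probes, 21150 were brighter than the 95th percentile of blank spots on at least 4 of 8 arrays and without a bad flag. They were tested in limma 3.58.1 (R 4.3.3, lmFit and eBayes on group means), with Benjamini-Hochberg adjustment over all of them and a threshold of 0.05. The limma fit, and not the earlier steps, was tested on simulated normalised values. Intervals are 95% intervals from this fit, and exact permutation tests ran over 70 arrangements. The number of arrays limits the precision.

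The listed genes, the pathway lists and the marker lists were chosen with earlier results of these data known. Named genes were all listed genes, those called or the 3 with the smallest p in each pathway list, the 5 most like the activity mean, and Cacna1g. Gene names came from the platform annotation, in which 20690 probes have 1 symbol. The closing section gives the alternatives.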

Additional observations from a re-analysis of the deposited data

Results flagged for a closer look

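In 5 of 62 groups of 4 arrays, 1 array stood apart, its gap to the nearest other, divided by the group's range, exceeding Dixon's 95% critical value. Chance gives about 1 in 20 such groups. Fosb read 6.49 on Cav3.1 KO replicate 4 and 6.64 to 6.66 on the others of its group. Fosl2 read 6.10 on WT replicate 3, against 5.93 to 5.95. Btg2 read 6.46 on WT replicate 3, against 6.38 to 6.39, which is still below its lowest Cav3.1 KO value. Nr4a3 read 5.78 on WT replicate 2, against 5.83 on the other WT arrays. Dusp1 read 7.51 on WT replicate 2, against 7.24 to 7.29, also below its lowest Cav3.1 KO value.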

How the results depend on the processing

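Over 22 settings, 21 of the 31 genes kept the direction of their difference in all that could give one, and the call changed in 40 of 670 pairs of gene and setting, over 7 genes (Csrnp1 included). In the value table the median difference over all probes was -0.07 (-0.0656), which moves small differences in it towards lower values. The probes called, 61 in all, numbered 7 with the first chip series only, 23 with the gain set as a block, 36 with median scaling, 34 in the value table and 8 with the replicate block. Leaving out 1 array gave 16 to 49. Of the listed genes, 2 were called; there were 5 with a trended, robust fit, 4 with offset 16, 1 with the gain block, 0 with the first chip series, 0 with the replicate block, and 0 to 3 without 1 array. Among the other pathway genes, 1 was called; there were 2 with the trended fit, 3 with offset 16, 0 with the first chip series, the gain block, median scaling or the replicate block, and 0 to 2 without 1 array. The median of the stress and growth-factor genes, 0.36, was 0.86 after blank subtraction, 0.60 with offset 16, 0.79 in the value table, and 0.35 to 0.43 without 1 array. The normexp offset was 50 in the main setting, and each of these genes differed by more with offset 16. Maff moved from 0.31 to 0.58 and Btg2 from 0.41 to 0.62, while the brighter Gadd45g moved from 0.76 to 0.80. The size of the differences of dim probes, and their folds, therefore depends on the chosen offset. The cause of the other changes was not tested. The median of the activity genes was 0.00 (-0.0021) to 0.07 without 1 array and 0.06 without Fosl2. Klf4 was called after blank subtraction (limma adjusted p 0.0494), with offset 16 (0.0161), median scaling (0.0234), the trended fit (0.0168) and the value table (0.0307). Gadd45g was called with offset 16 (0.0239), cyclic loess (0.0463) and the trended fit (0.0137), and Atf3 with the trended fit (0.0420). Csrnp1 lost its call after blank subtraction (0.0738), with median scaling (0.0580) and in the value table (0.0538). Deviations of same-numbered arrays correlated at -0.115 to 0.0109, and those of arrays with unlike numbers at -0.372 to 0.404. So few pairs cannot show whether the replicate numbers pair the samples. Of the 20 tested glucocorticoid-induced genes, 6 were called, and 1 with the replicate block, where 61 and 8 of all 21150 probes were. The value table and detection on all 8 arrays each left out Atf3. Averaging probes of a gene was not run, since each listed gene has 1 probe. Dim probes limit Npas4, Nr4a3, Atf3, Egr3 and Fosl2, and the probes of Maff, Nptx2 and Egr2 were only a little brighter. Small differences of such probes do not show that a gene was unchanged. The same holds for the median of the activity genes, to which Egr2, Egr3 and Fosl2 belong.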
